A study of Mus musculus with 2 samples.

Results

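A-kinase anchoring proteins are scaffolds that bind the regulatory subunits of protein kinase A (PKA), the kinase switched on by cyclic AMP, and hold it at a given place in the cell. They differ widely in sequence and in address, which ranges from the plasma membrane and the cytoskeleton to the centrosome, the nucleus and the outer membrane of mitochondria. Many also carry phosphatases, other kinases or phosphodiesterases, so that the cyclic AMP signal acts and ends at one site. The polysome association of the mRNAs of 9 of these genes (Akap1, Akap2, Akap7, Akap8, Akap9, Akap10, Akap11, Akap12 and Akap13) was measured in mouse fibroblasts with and without endoplasmic reticulum stress. Members were found by gene name, 9 of the 28095 names on the array, and were represented by 25 probes of 1 spot each among 41174 probes. The family was chosen by the change of Akap12, which was among the largest increases in polysome share, so its values are given as a description and support nothing further.

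The cells were NIH3T3, an immortalised line of mouse fibroblasts. Control cells were left untreated, and stressed cells received 10 µM thapsigargin, which blocks the calcium pump of the endoplasmic reticulum, for 3 h. Both groups were otherwise grown alike, on 4 plates in medium with 10% serum, with no engineered allele in the labels. By the study's methods, cells of both groups were given cycloheximide, which holds ribosomes on the mRNA, shortly before lysis. RNA was separated on a sucrose gradient into polysome-bound RNA (P), read in Cy3, and the pooled free RNA and monosomes (FM), read in Cy5, and RNA from 3 preparations was combined on 1 two-colour array per condition. The ratio log2 P/FM scores how much of an mRNA is on polysomes, and A, the average of the log2 signals of both channels, scores its abundance. With 1 array per condition the differences have no replicate check and no test was made. The dyes were not exchanged between the fractions, so dye and fraction cannot be told apart in a level of log2 P/FM. RNA of the fractions was labelled in the proportions the study found, with more P than FM in control cells and more FM than P under stress. The input to each channel thus differed between the arrays. Signals are given after background subtraction, in scanner units, and were not normalized between the arrays.

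As a guide to array error, the spots of a probe printed more than once differed with a median SD of 0.098 in the change of log2 P/FM, over 109 probes. Different probes of 1 mRNA differed more, with a median SD of 0.32 over 3438 mRNAs. Neither value covers the spread between preparations. Between 42.5 and 46.3% of spots were well above background by the flag of the scanner software, depending on channel and array. All 9 fibroblast markers examined (Col1a1, Col1a2, Col3a1, Vim, Fn1, Thy1, Pdgfra, Pdgfrb and S100a4) were well above background in all 4 signals. None of 4 epithelial and none of 3 endothelial markers were, and of the haematopoietic markers given here Cd14 and Cd3e were while Ptprc was not. Atf4, a transcription factor translated under stress, went from a log2 P/FM of -1.60 to 1.83, and Actb, cytoplasmic actin, from 1.69 to -0.07.

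Each ratio below was read at a probe of 60 bases, and the sequences show what was hybridised for each member. For the members the results turn on, the first 30 bases are printed as the files give them, from 5′ to 3′. An Akap9 and an Akap13 probe whose deposited ends lie further apart than their length, as across an exon junction, are printed whole. A second Akap9 probe, A_51_P181833, is of this kind too and is not printed.
Akap12, probe A_51_P342567: gtactcttctaggctggaccgaattcatat
Akap11, probe A_52_P244964: gagtttgctcatttagtgcactaaggtctt
Akap11, probe A_52_P633481: actgttctttaaaaccagttttatttccct
Akap8, probe A_51_P176549: gatgtactagggtgtgtattatttggtgga
Akap9, probe A_52_P567697: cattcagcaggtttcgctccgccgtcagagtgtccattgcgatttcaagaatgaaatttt
Akap13, probe A_52_P229770: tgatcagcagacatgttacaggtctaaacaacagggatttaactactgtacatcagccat
Akap2, probe A_52_P306305: attaaagtgcatacaaactcaacaaccctc
Akap1, probe A_52_P556328: ggagtgagacatggactaattggtatcgat
Akap10, probe A_52_P160970: tgtgtgtaacagcttagagagaaaggaagt
Akap7, probe A_52_P298801: ggtagtccaacaagcaatgcagatttcaac
On mouse build mm9 the Akap12 probe lies on the minus strand at chr10:5987207-5987266 and the Akap7 probe on the minus strand of the same chromosome at chr10:24889988-24890047. The brightest Akap2 probe lies on the plus strand at chr4:57905932-57905991. The Akap13 probe spans chr7:82830186-82832148 and the Akap9 probe chr5:4070483-4072625, both on the plus strand. Whether the other probes lie in coding or untranslated sequence was not analysed here.

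Of the 25 probes, 21 were assigned to NM accessions, which were taken as coding. Among these, 17 from all 9 genes had A above 4.5 on both arrays, the level used for all coding mRNAs, and 15 of the 17 were also well above background in all 4 signals. A probe with 1 dim signal is given as a bound, taken with that signal at its own value. Such a bound applies to the background method used here and can be crossed with another. Left below the level of A were 1 probe of Akap1, 1 of Akap10 and 2 of Akap13. The 4 probes of other accessions (1 each for Akap7 and Akap13 and 2 for Akap10) were not well above background in any signal.

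Under thapsigargin the mRNAs of most anchoring proteins were more strongly associated with polysomes, while the bulk of mRNAs were less so with the background method used here. The decrease of the bulk depended on the treatment of the signals. The median change of all coding probes was -0.23 with the processed signals of the software, -0.11 after loess and -0.10 after centring each array. It was 0.02 with normexp background correction and 1.91 with spike-in scaling. The 17 member probes had a median change in log2 P/FM of 1.42, with an interquartile range of 0.96 to 1.78. Over all 14657 coding probes at the same level of A the median change was -0.64, with an interquartile range of -1.49 to 0.31. The members therefore lay 2.06 above the median of all probes, and without Akap12 the 16 other probes had a median change of 1.36. A change of 1 or more was found in 12 member probes, from 7 genes, beside 12.6% of all coding probes. A change of -1 or less was found in 1 member probe, that of Akap7, beside 39.2% of all coding probes. The change was above 0 in 15 member probes, beside 32.2% of all. Scaling to the spike-in probes moved every change up by 2.55, which put all the changes named here above 0 and left the distances between them as they are. The directions given below for the 17 member probes hold without that scaling, except for the dim Akap1 probe and the Akap10 probe. With normexp these changed by 0.34 and -0.06. Centring each array on its median moved every change up by 0.55. Since the genes were chosen with these values known, nothing beyond the counts is read from them.

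**Figure D1:**
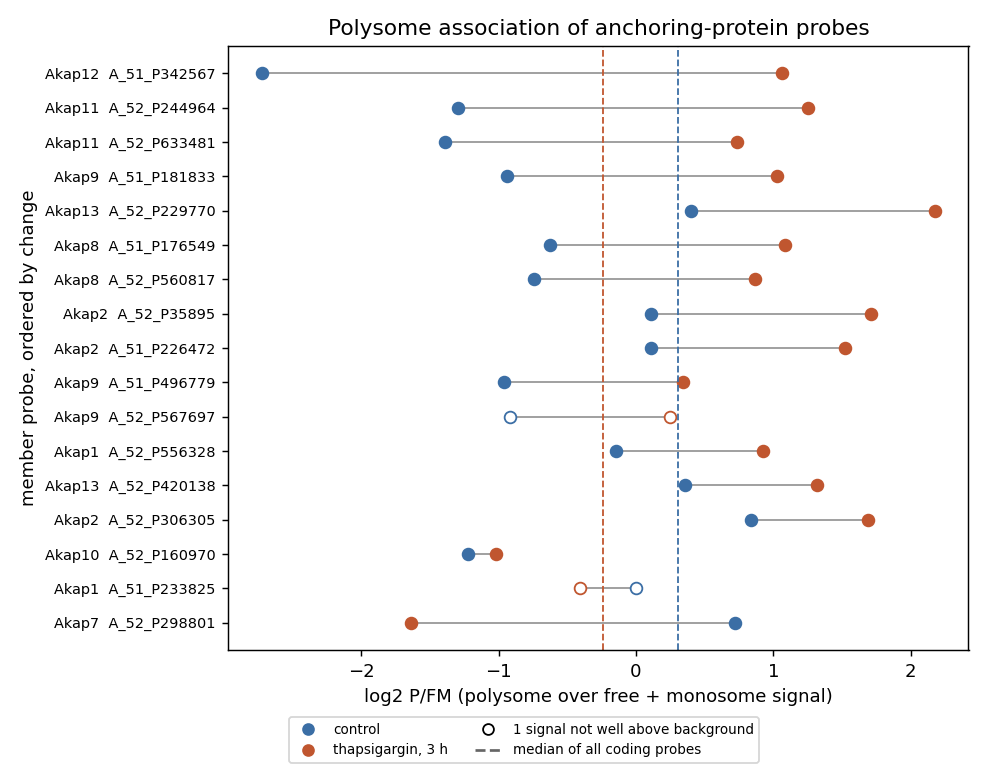
log2 P/FM of the 17 member probes on the control array (blue) and the thapsigargin array (orange), ordered by their change; open circles mark probes with 1 signal not well above background, and dashed lines the medians of all coding probes, 0.30 in control and -0.24 under stress. Akap12 covers the longest distance, from -2.72 to 1.06, and Akap7 runs the other way, from 0.72 to -1.64, though with spike-in scaling its change was 0.19.

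Akap12, also called gravin or SSeCKS, is a large scaffold at the plasma membrane and cytoskeleton that binds PKA and protein kinase C. Its single probe read 117 in P and 772 in FM in control cells, and 403 in P and 192 in FM under stress. The FM signal was thus well over the P signal in control cells and below it under stress. log2 P/FM went from -2.72, at percentile 0.907 of all coding probes, to 1.06, at percentile 91.8. The change of 3.79 was the fifth highest of all 14657 coding probes. Among the 8240 coding probes that were well above background in all 4 signals with A above 7 on both arrays it ranked 4. The P signal was 3.44-fold higher and the FM signal 4.01-fold lower, and the difference in A was -0.11, beside a median of 0.40 for all coding probes. The difference in A was lower still with other treatments of the signals, down to -0.72 with normexp, while P was higher and FM lower under all 6 treatments examined. With 1 spot of 1 probe, the value has no second reading on the array.

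Akap13, or AKAP-Lbc, anchors PKA and is also an exchange factor for the GTPase RhoA. Its probe A_52_P229770 read 136 in P and 103 in FM in control cells, and 421 and 93.0 under stress. Its log2 P/FM went from 0.40 to 2.18, the highest level among the members under stress and at percentile 99.7 of all coding probes. A second Akap13 probe, A_52_P420138, read 59.6 and 46.5 in control cells and 159 and 64.0 under stress, a change of 0.96. The mean of both was 1.37 ± 0.58 (SD, n = 2 probes), beside the median SD of 0.32 between probes of 1 mRNA. Why the 2 probes differed was not tested. A further probe, A_51_P149391, had 3 signals not well above background and gave no value.

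Akap2, now named Pakap, encodes a scaffold found at the membrane and the actin cytoskeleton. Its probe A_52_P306305 was the brightest of the family, with 5107 in P and 2853 in FM in control cells and 11342 and 3515 under stress. It was already above 0 in control cells, at 0.84, and reached 1.69. The change of 0.85 was 2.46 with the processed signals of the software and 2.47 after loess. It was the only member probe that met the definition of a resistant mRNA, which has a log2 P/FM of at least 0.8 in both conditions, beside 3.54% of all coding probes. Its other probes went from 0.11 to 1.53 (A_51_P226472) and from 0.11 to 1.72 (A_52_P35895). The P signal of the 3 probes was 2.07 to 2.47-fold higher, and the mean change in log2 P/FM was 1.29 ± 0.39 (SD, n = 3 probes). Under stress the 3 probes gave closely similar levels, 1.64 ± 0.10, whereas in control cells they spread over 0.35 ± 0.42, with the bright probe above the others.

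Akap9 is a very large protein of the centrosome and the Golgi apparatus. Its probe A_51_P181833 read 67.7 in P and 130 in FM in control cells, and 233 and 114 under stress. Probe A_51_P496779 read 65.6 and 128, then 140 and 110.5. Both started at nearly the same log2 P/FM, -0.94 and -0.96, and ended at 1.02 and 0.34, changes of 1.96 and 1.31. Probe A_52_P567697, printed above, was dimmer, with a control P signal of 18.2 that was not well above background. Its change was at least 1.17 with the background method used here, but 0.70 with normexp and 0.38 without background subtraction.

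Akap8 is a nuclear scaffold bound to chromatin and the nuclear matrix. Probe A_51_P176549 read 214 in P and 331 in FM in control cells, and 575 and 271 under stress. Probe A_52_P560817 read 166 and 279, then 400 and 219. Both crossed from more FM than P signal to more P than FM signal. Their changes of 1.72 and 1.61 lay close together, with a mean of 1.66 ± 0.07 (SD, n = 2 probes).

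Akap11 anchors PKA together with the phosphatase PP1 and the kinase GSK3. After Akap12 it had the largest increase of the family with the background method used here. Probe A_52_P244964 read 39.8 in P and 97.4 in FM in control cells, and 180 and 75.6 under stress, a change from -1.29 to 1.25. Probe A_52_P633481 read 21.0 and 55.0, then 125 and 75.3, a change from -1.39 to 0.73. The P signal was 4.52-fold and 5.97-fold higher, the largest increases in P of the family, while FM was 1.29-fold lower at the first probe and 1.37-fold higher at the second. The mean change in log2 P/FM was 2.33 ± 0.29 (SD, n = 2 probes). The changes of 2.54 and 2.13 were 1.53 and 1.11 with normexp, and 1.69 and 1.32 without background subtraction. With normexp they lay below the changes of the Akap13 probe A_52_P229770 (1.94) and the Akap8 probe A_51_P176549 (1.54).

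Akap1 holds PKA and mRNAs at the outer membrane of mitochondria. Its probe A_52_P556328 read 97.4 in P and 108 in FM in control cells and 238 and 126 under stress, a change of 1.07. A second Akap1 probe, A_51_P233825, was near background, with 26.0 in both channels in control cells and 34.3 and 45.5 under stress. Its control FM signal was not well above background. Its change was at most -0.41 with the background method used here, but 0.34 with normexp and 0.14 after centring each array. Whether the probes of Akap1 shared a direction thus could not be told. Akap10 binds both types of PKA regulatory subunit and has been placed at mitochondria and endosomes. Its probe read 72.1 in P and 169 in FM in control cells, and 157 and 319 under stress. Both signals were higher under stress, by 2.18-fold and 1.89-fold, so that log2 P/FM hardly differed, at -1.23 and -1.02. The change of 0.21 was within the spread between probes of 1 mRNA, and was 0.85 above the median of all coding probes. A dimmer Akap10 probe, A_52_P75866, gave a change of at least 0.77 with the background method used here.

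Akap7 anchors PKA near ion channels and, in heart muscle, at phospholamban. It was the member that went the other way, except with spike-in scaling, where its change was 0.19. Its probe read 94.1 in P and 57.0 in FM in control cells, and 63.0 and 197 under stress. The P signal was thus at 0.67 of its control value and the FM signal 3.45-fold higher, and log2 P/FM went from 0.72 to -1.64. The change of -2.36 was 1.72 below the median change of all coding probes and ranked 13614 of 14657. Akap7 was the only member probe in the sensitive class, defined as a change of -0.8 or lower, beside 45.2% of all coding probes. With normexp the change was -0.80. The value rests on 1 spot, as the other Akap7 probe had no signal well above background.

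Ordered by the mean change of their probes that were well above background in all 4 signals, the genes ran from Akap12 (3.79) and Akap11 (2.33) through Akap8 (1.66), Akap9 (1.64), Akap13 (1.37), Akap2 (1.29) and Akap1 (1.07) to Akap10 (0.21) and Akap7 (-2.36). The steps between Akap8 and Akap9, Akap9 and Akap13, Akap13 and Akap2, and Akap2 and Akap1 were each smaller than the median SD of 0.32 between probes of 1 mRNA and cannot be ordered. The steps from Akap12 to Akap11, from Akap11 to Akap8 and from Akap10 to Akap7 were larger than this median SD. That from Akap1 to Akap10 was larger too, but rests on 1 probe of each gene. In the authors' log2 ratios their order was reversed, with changes of 0.30 for Akap1 and 0.49 for Akap10. The second place of Akap11 did not hold with normexp, as given above. In control cells the order was different, with Akap12 lowest, at -2.72, followed by Akap11 at -1.34, Akap10 at -1.23 and Akap9 at -0.95, and with Akap7 highest, at 0.72.

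The mRNAs of the family differed from each other in both conditions. log2 P/FM of the 17 member probes ran from -2.72 to 0.84 in control cells and from -1.64 to 2.18 under stress. Without Akap12, by which the family was chosen, the lowest control value was -1.39. The median log2 P/FM of the 17 member probes was -0.63 in control cells, below the 0.30 of all coding probes, and 1.02 under stress, above the -0.24 of all coding probes. Inducible mRNAs are those at or below 0 in control cells with a change of 1 or more, and 9 member probes from 5 genes (Akap1, Akap8, Akap9, Akap11 and Akap12) met this definition, beside 11.0% of all coding probes. Akap2 and Akap13 were above 0 in control cells, so that their probes with changes of 1 or more were not in this class.

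Which channel moved depended on the background correction. The P signal was higher under stress in 16 of 17 member probes, beside 53.1% of all coding probes, with Akap7 the exception. The median change in log2 P was 1.31 for the members and 0.08 for all coding probes. The FM signal was lower in 9 member probes, beside 15.2% of all coding probes, and higher in 8. Its median change was -0.11 for the members and 0.71 for all coding probes. Akap12 was the only member whose FM signal was lower by 1 or more on the log2 scale, at -2.01, and the next was an Akap2 probe at -0.55. With normexp the members' median change was 0.01 in log2 P, beside -0.71 for all coding probes, and -1.35 in log2 FM, beside -0.54. The P signal was then higher in 9 member probes, and FM was lower by 1 or more in 12. With the other 4 treatments of the signals P was higher in 16 and FM lower by 1 or more in Akap12 only.

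**Figure D2:**
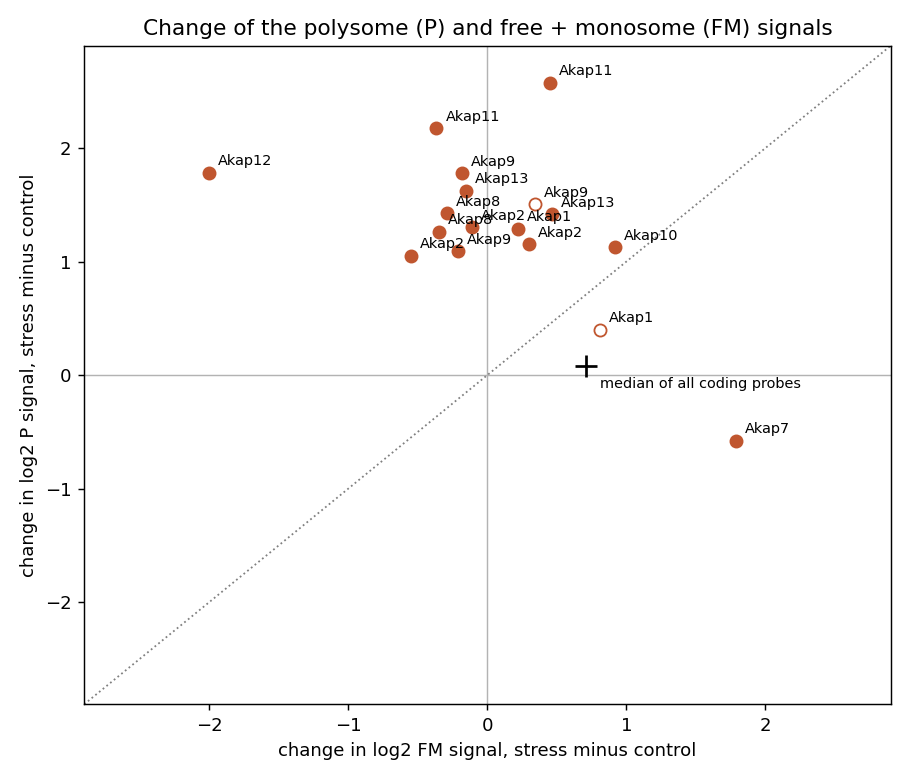
Change in the log2 FM signal (horizontal axis) and in the log2 P signal (vertical axis), stress minus control, of each member probe; open circles mark probes with 1 signal not well above background, the dotted line no change in log2 P/FM, and the cross the median of all coding probes, at 0.71 and 0.08. Most members lie above 1 on the vertical axis with little change in FM, Akap12 stands far to the left at -2.01, and Akap7 lies below the line at 1.79 and -0.58. With normexp, not plotted, the members' medians were -1.35 in FM and 0.01 in P.

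The abundance of these mRNAs differed less than their polysome association. The change in A ran from -0.11 (Akap12) to 1.51 (Akap11, A_52_P633481), with a median of 0.73 beside 0.40 for all coding probes. It was 1 or more in 2 member probes, that of Akap11 and that of Akap10 (1.02), beside 13.4% of all coding probes, and no member was lower by 1 or more. The direction of these changes in A depended on the background correction. With the normexp method, which moved the median of all coding probes from 0.40 to -0.53, 16 of the 17 member probes had a lower A under stress. Relative to the median of all coding probes, 15 member probes were higher with the background method used here and 6 with normexp. In a bulk extract, fewer cells with an mRNA and less of it per cell cannot be told apart.

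Above a mean A of 7, brighter coding probes had lower changes in log2 P/FM, so the members were also set beside probes of similar brightness. Among probes with a mean A of 5.5 to 7, the median change of all coding probes was -0.18 and 18.6% had a change of 1 or more. Of the 8 members in that range, 6 had a change of 1 or more, and 7 lay above the upper quartile of all probes, 0.69. With a mean A of 7 to 9 the median of all was -0.56 and 13.0% had a change of 1 or more, and 5 of the 6 members there reached it. The bright Akap2 probe, at 0.85, lay above the upper quartile of -1.09 for coding probes with a mean A above 12.

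**Figure D3:**
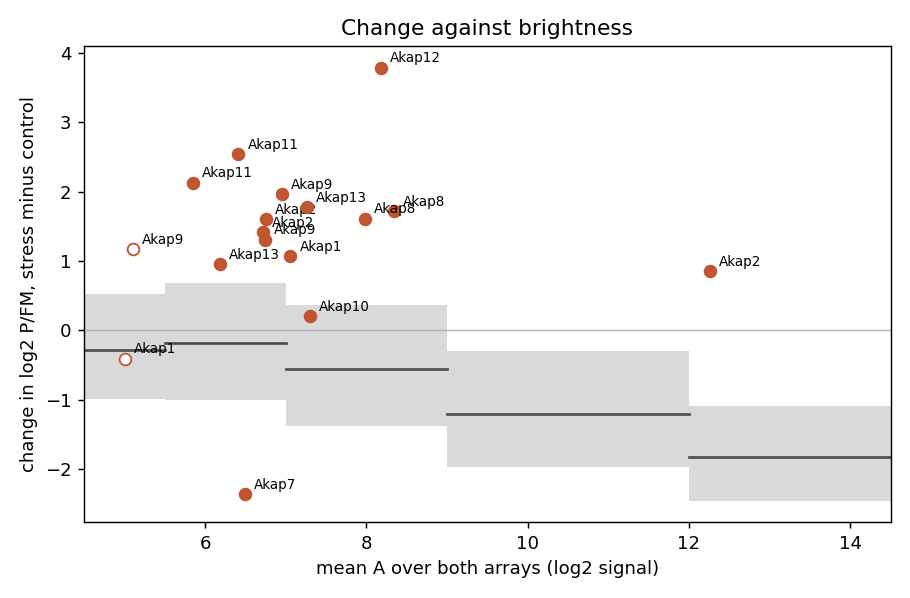
Change in log2 P/FM of each member probe against its mean A over both arrays; grey bands give the interquartile range and dark lines the median of all coding probes in 5 ranges of brightness. Most members lie above the band of their own range, including the bright Akap2 probe at 0.85, while Akap10 and the dim Akap1 probe lie within it and Akap7 below it.

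For the kinase that these proteins anchor, 5 of 6 genes for PKA subunits had 8 probes at the level of A used. None of these had a change of 1 or more, beside 12.6% of all coding probes. A change of -1 or less was found in 3, beside 39.2% of all coding probes. With 8 probes these counts are not read as a difference. The median change of the 8 was -0.78, which is -0.14 relative to the median of all coding probes. Prkaca, the main catalytic subunit, read 4679 in P and 1874 in FM in control cells and 853 and 1985 under stress. Its log2 P/FM went from 1.32 to -1.22, a change of -2.54, and its A was lower by 1.19. Prkar2b, a regulatory subunit of type II that many anchoring proteins bind, read 2468 and 1546, then 2540 and 3690, a change of -1.21 in which the P signal stayed nearly level while FM was higher. Prkar1a, a regulatory subunit of type I, changed by -0.79. The 3 probes of Prkar2a changed by -0.13, -0.65 and -1.01, and the last 2 values come from probes with signals not well above background. The probes of the second catalytic subunit, Prkacb, opposed each other, at 0.76 and -0.77. Prkar1b was not above the level of A.

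Other genes of the cyclic AMP pathway were divided. Among cyclic AMP phosphodiesterases, which end the signal, 4 of 9 genes on the array had 6 probes at the level of A, with a median change of 0.87. A change of 1 or more was found in 3 of these probes, beside 12.6% of all coding probes. Pde4b gave 1.51 and 1.46 at its 2 probes, together with changes in A of 1.52 and 1.29. Pde7a gave 1.30 and -0.33, Pde8b 0.44 and Pde4a -0.78. The PKA inhibitors Pkig and Pkia changed by -0.37 and -0.00, the adenylyl cyclase Adcy6 by -0.87, and Rapgef3, a PKA-independent effector of cyclic AMP, by -0.67. Among 5 genes of cyclic AMP-responsive transcription with 9 probes, the median change was -0.55. A change of 1 or more was found in 1 probe and of -1 or less in 3, beside 12.6% and 39.2% of all coding probes. With so few probes the counts of these lists are not read as a difference. Creb1, the founding factor of that group, changed by 2.12 at one probe and by 0.28 and -0.04 at the others, and its coactivator Crtc2 by -1.54.

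Anchoring proteins without a member's name also varied. Of 19 such genes listed, 9 had 12 probes at the level of A, with a median change of -0.17, 3 with a change of 1 or more and 2 with a change of -1 or less. Nbea, a large protein of membrane traffic that binds PKA, read 70.3 in P and 181 in FM in control cells and 313 and 149 under stress, a change from -1.36 to 1.07. Pcnt, a scaffold of the centrosome as Akap9 is, changed from -0.43 to 1.26. Akap17b changed by 1.20 with a dim signal. Probes of these genes below the level of A gave -0.39 for Pcnt, -0.47 for Akap17b, and -0.04 and 1.05 for Nbea. Rab32, a small GTPase that anchors PKA at mitochondria, changed by -1.76, and Wasf1, a regulator of actin assembly, by -1.56. Akap8l, the relative of Akap8, changed by 0.27 only. Akap3, Akap4, Akap5, Akap6 and Akap14 were not above the level of A. Over all 7 lists of 56 genes, 39 probes of 27 genes were at the level of A, with a median change of -0.37. Of these, 7 changed by 1 or more and 8 by -1 or less, beside 12.6% and 39.2% of all coding probes.

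**Figure D4:**
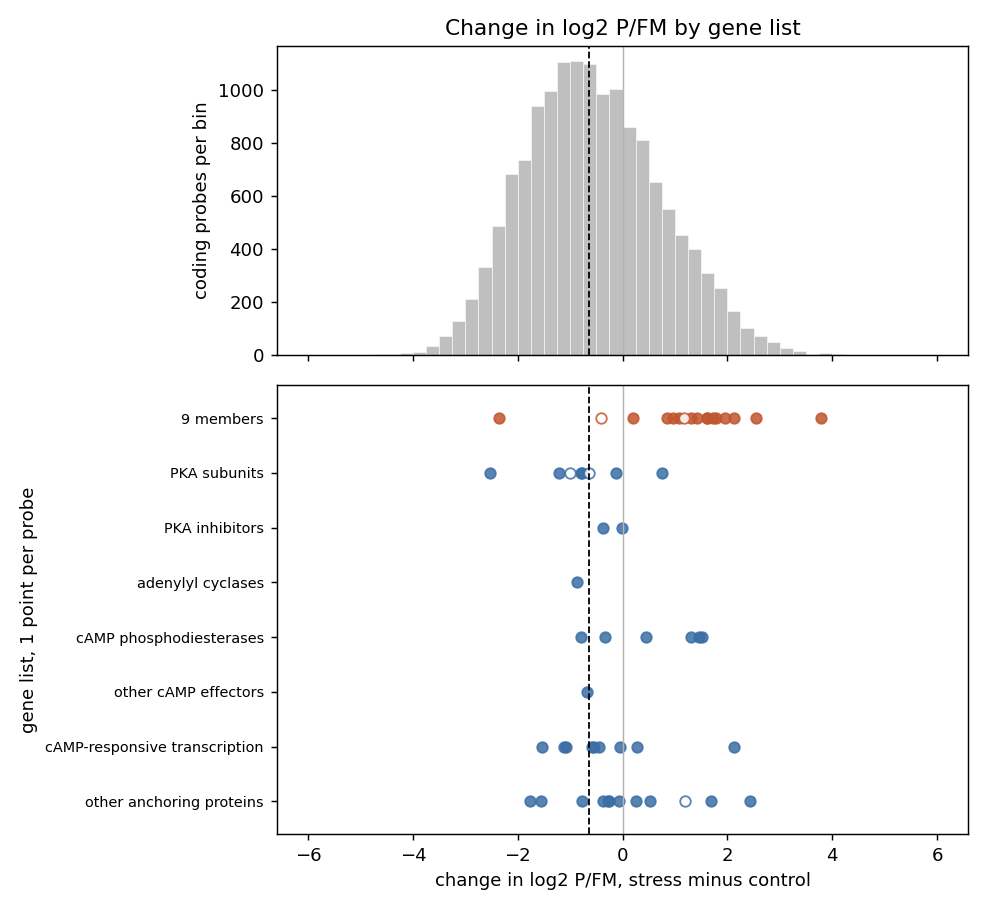
Top, number of coding probes by change in log2 P/FM, stress minus control, for all 14657 probes; bottom, 1 point per probe for the 9 members (orange) and for 7 lists of related genes (blue), with open circles for probes not well above background in every signal and the dashed line at the median of all coding probes, -0.64. The members lie mostly to the right of 1, where 12.6% of all coding probes lie.

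The mRNAs with signals most like those of Akap12 were sought among 13568 coding probes of other genes well above background, by the root mean square difference of the 4 log2 signals. The nearest was Macf1, a giant linker of actin and microtubules, at a distance of 0.35, with log2 P/FM of -2.25 in control cells and 1.68 under stress. Magi2, a membrane scaffold, followed at 0.36, with -2.12 and 0.38, and Zdhhc21, a palmitoyltransferase, at 0.41, with -2.26 and 1.08. Cbll1, a ubiquitin ligase, at 0.44 had -2.14 and 1.18, and Zfp52, a zinc finger protein, at 0.47 had -1.78 and 0.48. These distances rest on 4 signals of 2 arrays and were chosen for likeness, so they describe the arrays only.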

How the data were processed

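The deposited intensity values of spots and of their local background came, per the file headers, from Feature Extraction 10.7.1.1. The deposited files also hold processed intensity values, dye-normalized by that software, and their log10 ratio (Cy5 over Cy3). The authors further made a table of log2 ratios by accession without normalization. Positions are those deposited, on mm9.

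From each mean spot signal its median local background was taken off, and a remainder under 0.5 was replaced by 0.5 (limma 3.58.1 in R 4.3.3), as the study names, and no normalization was applied. Of 43379 spots, 295 (0.680%) flagged as outliers were left out, none of them a member's. Coding probes were those of NM accessions, and values cover A above 4.5 on both arrays. Current symbols came from RefSeq (GRCm38.p6, for names alone), where 98.4% of coding probes matched. Named were the member probes above that level of A and 2 below it, the 5 coding probes nearest to Akap12, every PKA subunit, and the extremes of each list with the other probes of its genes, some of which were chosen after their values were seen. The members and lists were chosen with earlier results of these data known. The steps were tested on simulated data. Protein length was not analysed here.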

Additional observations from a re-analysis of the deposited data

How the results depend on the processing

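With 1 array per condition no array could be left out, and no spread between preparations is known. No paired analysis was possible because each condition has 1 array. Of the 17 member probes, 14 kept the sign of their change in log2 P/FM under all 8 other treatments of the signals, and the exceptions were Akap7, Akap10 and the dim Akap1 probe. Scaling to the spike-in probes, whose ratio fell by 2.44, moved the median change of all coding probes by 2.55. It gave Akap7 a change of 0.19, the members a median of 3.97, and 0 member probes lower by 1 or more. The median of the members was 1.80 after loess and 1.97 after centring each array, and between 1.15 and 1.74 otherwise. Relative to all coding probes it lay from 1.25 (normexp) to 2.27 (A above 5.5) higher. With normexp, 0 member probes were lower by 1 or more, and the change in A turned to -0.25 for the Akap10 probe and -0.83 for the Akap11 probe that had exceeded 1. By accession, 6 of 9 members were higher by 1 or more, and 5 of 8 in the authors' table. Among member probes past a change of 1 in either direction, 92.3% were higher, and between 83.3 and 100% under the alternatives. For all coding probes this share was 24.3%, but 35.1% with normexp, 41.9% with the processed signals or the log ratio of the software, 48.1% after loess, 48.2% after centring and 99.6% after spike-in scaling. In probes near background, A and the ratio are limited by the background correction.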
